A study of Homo sapiens with 5 samples.

Results

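Genes whose transcription is driven by the tumour suppressor p53 were followed in HEK293T cells given ascorbic acid (vitamin C). The 10 genes are CDKN1A, MDM2, TP53I3, SESN1, PHLDA3, BAX, BBC3, FAS, ZMAT3 and TP53INP1. They were picked by symbol, as well-known p53 targets, from the 28278 genes of the count table, with earlier results of these data known. All 10 had enough counts to be tested. The study measured poly(A) RNA by sequencing in 5 libraries, and the question put to the 10 genes is whether their transcripts differed between ascorbic acid and control. The ascorbic acid group holds 2 libraries of HEK293T cells given ascorbic acid, with medium changed every 6 h. Cells of both groups were seeded for 24 h first. For the ascorbic acid group the labels name a treatment of 24 h for DNA methylation tests and of 36 h for RNA methylation tests. They do not say which of these the sequenced cells had. The control group holds 3 libraries of HEK293T cells whose genotype field reads WT, and the labels give neither a dose nor a vehicle. Whether the libraries of a group come from cultures grown apart is not in the labels, and each p-value therefore sets a difference against library-to-library spread that can be technical alone. Only 1 cell line was studied.

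p53 is a transcription factor that is normally kept scarce by the ubiquitin ligase MDM2 and is released when DNA is damaged or growth signals go wrong. It then binds paired decamer elements near its target genes and raises products that halt the cell cycle, repair DNA, alter redox metabolism or start apoptosis, as well as MDM2 itself, which closes a feedback loop. HEK293T is a human embryonic kidney line transformed with adenovirus early region genes and carrying the SV40 large T antigen, and the proteins of both viruses bind p53, so the pathway is known to be restrained in this line.

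The DNA that p53 reads is shown for the members in which it could be found near a start site. Promoter windows from 250 bases before to 50 bases after each start were taken from RefSeq (GRCh38.p14), which gave 16 windows for 8 members. PHLDA3 and TP53INP1 were not among them. Each window was searched for the p53 decamer consensus, a degenerate palindrome, so that a single scan covers both strands and no match overlaps a second motif. An exact decamer lay in 2 of the 16 windows (12.5%), in SESN1 and FAS, against 6.63% of all 35116 windows. Counted by gene, that is 25% of 8 members and 8.06% of 27305 genes. A search for adjoining pairs of decamers, added after the exact search, found pairs with at most 3 mismatches among their 20 bases in SESN1, FAS and MDM2, or 37.5% of the 8 members against 6.39% of all genes. With at most 2 mismatches the pairs lay in FAS and MDM2, or 25% of members against 0.82% of all genes. Counted by window, pairs with at most 3 mismatches lay in 25% of the 16 and 5.2% of the 35116. Overlapping windows of MDM2 held the same pairs. The members were picked as p53 targets and have more windows per gene than all genes do, so these shares are a description and not a test. Capitals mark the paired decamers in the stretches below, given 5′ to 3′ on the strand of the gene.
SESN1, chr6:109008998-109009057, minus strand: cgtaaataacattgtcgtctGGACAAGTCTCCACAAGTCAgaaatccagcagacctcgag
FAS, chr10:88991289-88991348, plus strand: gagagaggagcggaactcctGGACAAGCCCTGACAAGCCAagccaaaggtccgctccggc
MDM2, chr12:68808903-68809000, plus strand: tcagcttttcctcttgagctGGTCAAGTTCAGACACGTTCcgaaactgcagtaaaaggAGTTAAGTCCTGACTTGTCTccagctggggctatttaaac
These stretches lie before an internal start of SESN1, FAS and MDM2, inside the span of each gene. SESN1 has 0 mismatches in its first decamer and 3 in its second, and FAS has 0 and 2. MDM2 holds 2 pairs close together, the first with 1 mismatch in each decamer and the other with 2 and 1. TP53I3, CDKN1A, BAX, BBC3 and ZMAT3 had no pair in their windows, which says only that these letters are absent there, since p53 elements can lie farther away.

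TP53I3 is known for another kind of p53 element, a run of pentamers that varies in length between people. It is shown because TP53I3 gave the largest change of the 10 genes. In GENCODE release 29 on GRCh38 the run of TGCCC and TGTCC units is 15 units long in 2 of its 6 annotated transcripts, and its first 30 bases lie at chr2:24084388-24084417 on the minus strand, all capitals being repeat units.
TP53I3 repeat: TGCCCTGTCCTGTCCTGCCCTGCCCTGTCC
A run of at least 15 units was found in 1 of 57133 annotated genes, TP53I3 itself, and runs of at least 6 units in 4 genes. None of the 35116 promoter windows held 6 units on either strand. The number of units is that of the reference genome, and the number in HEK293T was not measured.

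The libraries held 48015766 and 41739602 counts with ascorbic acid, and 57212071, 38229722 and 35106664 counts in control. Levels are given in CPM, the counts of a gene scaled to a common library total with TMM factors. Of 15271 tested genes, 14.3% were called by the quasi-likelihood test of edgeR at an adjusted p under 0.05, 1303 of them (8.53% of those tested) higher and 879 (5.76%) lower with ascorbic acid. A separate fit with library totals as the only scaling called 2101 genes, 1712 higher and 389 lower. The median log2 fold change of all tested genes was 0.003. The line's markers were present: 11 of 12 were tested, among them VIM, NEFM and KRT18, and their summed level was 1143 and 1109 CPM with ascorbic acid against 1005, 1006 and 1028 CPM in control, with 4 markers called higher and 1 lower. Fibroblast markers summed to 0.625 and 1.13 CPM with ascorbic acid against 0.594, 0.366 and 0.342 CPM in control, with FAP at 0 counts in every library. The blood markers CD3E and HBB, the keratinocyte markers KRT5 and KRT1 and the proximal tubule marker SLC34A1 were also at 0 counts in every library. The part of the marker shifts in the results was not tested. In bulk RNA, fewer expressing cells and less RNA per cell cannot be told apart.

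**Figure D1:**
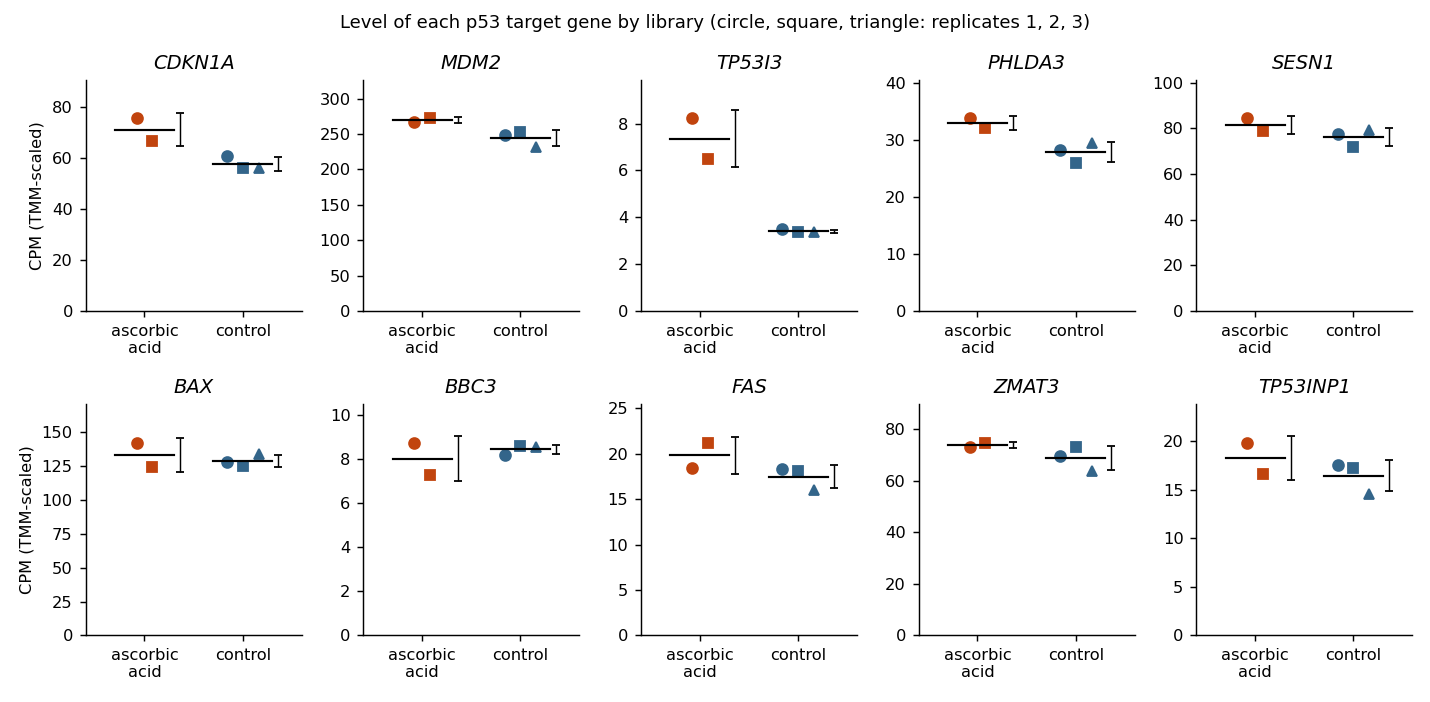
Level of each of the 10 p53 target genes in CPM, 1 panel per gene with an axis from 0, ascorbic acid (2 libraries) left of control (3 libraries). Points are libraries, horizontal lines are group means and bars are the SD. TP53I3 shows the widest separation, with 8.22 and 6.50 CPM against 3.37 to 3.48 CPM, while the groups of BAX and BBC3 overlap.

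Of the 10 p53 targets, 4 rose with ascorbic acid and 0 fell, against 8.53% higher and 5.76% lower among all tested genes. The members and the lists below were chosen with earlier results of these data known, so their shares beside all genes are descriptive only. TP53I3 rose 2.16-fold, CDKN1A 1.23-fold, PHLDA3 1.18-fold and MDM2 1.10-fold. The other 6 did not pass the test. At an unadjusted p under 0.05 in edgeR 5 members were higher and 0 lower, and the share of all genes at that threshold was not counted. DESeq2 and limma-voom called 0 members lower at an adjusted p under 0.05. Fold changes were above 0 on the log2 scale in 9 of 10 members, with a median of 0.14, whereas 50.8% of all tested genes were positive. In 5 members both ascorbic acid libraries lay above all controls, a pattern seen in 22.6% of tested genes, and in 0 members below all controls, seen in 20.4%. Only TP53I3 among the members rose by 2-fold or more, as did 297 of 15271 tested genes, of which 181 were called higher.

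CDKN1A encodes p21, the inhibitor of cyclin-dependent kinases through which p53 halts the cell cycle (chromosome 6, 36676460 to 36687339, plus strand). Its transcripts stood at 75.6 and 66.5 CPM with ascorbic acid, against 60.7, 56.2 and 56.2 CPM in control. Both ascorbic acid libraries were above every control, and replicate 1 of ascorbic acid stood above replicate 2. CDKN1A averaged 71.1 ± 6.43 CPM with ascorbic acid (SD, n = 2) and 57.7 ± 2.63 CPM in control (SD, n = 3), a log2 fold change of 0.30 ± 0.06 (SE, 95% interval 0.18 to 0.42, edgeR adjusted p = 0.000869). Without ascorbic acid replicate 1, the higher of the pair, the log2 fold change was 0.20 (adjusted p = 0.047). The antisense RNA DINOL covers 4.79% of the exon bases of CDKN1A on the other strand and had 14 and 6 counts with ascorbic acid, against 12, 4 and 2 in control.

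MDM2, the ubiquitin ligase that marks p53 for destruction (chromosome 12, 68808176 to 68850686, plus strand), carries the paired decamers printed above before its internal start. Libraries of the ascorbic acid group had 267 and 272 CPM, and those of control 249, 253 and 232 CPM. The groups did not overlap, and control replicate 3 was the lowest library. The means were 269 ± 3.96 CPM with ascorbic acid (SD, n = 2) and 244 ± 11.1 CPM in control (SD, n = 3). The log2 fold change was 0.14 ± 0.05 (SE, 95% interval 0.04 to 0.23, edgeR adjusted p = 0.0403). Of the 4 calls this was the least firm: leaving out ascorbic acid replicate 1, ascorbic acid replicate 2, control replicate 1 or control replicate 3 ended it, with log2 fold changes of 0.10 to 0.16 and adjusted p of 0.0576 to 0.196, and DESeq2 put it at 0.13 with an adjusted p of 0.0529. Genes as abundant as MDM2, at 100 CPM or more, had a median log2 fold change of -0.06 and 3.37% of them were called higher. The gene CPM and AC025423.4 cover 6.91% of the exon bases of MDM2 on the opposite strand, and AC025423.2 covers 3.3% on the same strand. The gene CPM had a log2 fold change of 0.30 ± 0.12 (SE, edgeR adjusted p = 0.0813), and how far reads were shared was not tested.

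TP53I3 encodes a quinone oxidoreductase, also known as PIG3, that generates reactive oxygen species (chromosome 2, 24077433 to 24085861, minus strand). It had 8.22 and 6.50 CPM with ascorbic acid, from 399 and 278 counts, against 3.48, 3.37 and 3.38 CPM in control, from 196, 128 and 117 counts. The lower ascorbic acid library lay well above the highest control, and the controls were close to each other. TP53I3 averaged 7.36 ± 1.22 CPM with ascorbic acid (SD, n = 2) and 3.41 ± 0.0625 CPM in control (SD, n = 3). The log2 fold change was 1.11 ± 0.13 (SE, 95% interval 0.84 to 1.39, edgeR adjusted p = 1.07e-06), and its p ranked 49 among the tested genes. Genes at 1 to 10 CPM had a median log2 fold change of 0.12, with 14.8% called higher, and 1.3% of them changed upward by as much as TP53I3. FAM228B, on the opposite strand over 3.46% of the exon bases of TP53I3, also rose, with a log2 fold change of 0.72 ± 0.21 (SE, adjusted p = 0.0219). The strand setting of the counting is not given in the sources used here, and how far reads of this pair were shared was not tested.

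SESN1 encodes a sestrin, a stress protein that restrains mTORC1 signalling. Its level was 84.4 and 78.6 CPM with ascorbic acid, against 77.7, 71.9 and 79.1 CPM in control. The lower ascorbic acid library fell inside the control range. The log2 fold change was 0.10 ± 0.05 (SE, 95% interval -0.02 to 0.21), which did not pass (edgeR adjusted p = 0.253).

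PHLDA3, a small lipid-binding protein that keeps the survival kinase AKT from the membrane (chromosome 1, 201464383 to 201469237, minus strand), had 33.8 and 32.1 CPM with ascorbic acid, against 28.2, 25.97 and 29.5 CPM in control. The groups did not overlap. Means were 33.0 ± 1.22 CPM with ascorbic acid (SD, n = 2) and 27.9 ± 1.78 CPM in control (SD, n = 3), a log2 fold change of 0.24 ± 0.07 (SE, 95% interval 0.10 to 0.38, edgeR adjusted p = 0.0181). Without ascorbic acid replicate 1 the log2 fold change was 0.20 (adjusted p = 0.129) and without control replicate 2 it was also 0.20 (adjusted p = 0.11), so the call rested on those libraries. PHLDA3 shares 19.1% of its exon bases with AC096677.2 on the same strand, and whether reads of the pair were split between them was not tested.

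**Figure D2:**
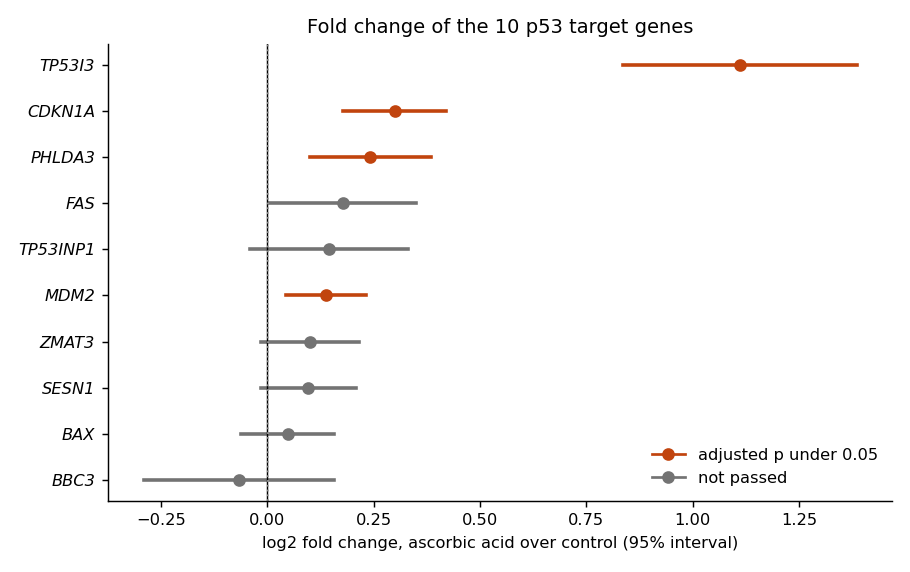
Log2 fold change of the 10 p53 target genes, ascorbic acid over control, with 95% intervals from edgeR, ordered from the highest (top) to the lowest. Filled colour marks an adjusted p under 0.05 and the dotted line is the median of all tested genes. The interval of TP53I3, 0.84 to 1.39, lies above those of the other 9 genes.

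The members that carry out apoptosis did not pass the test. BAX, which forms the pore in the mitochondrial outer membrane, had 142 and 124 CPM with ascorbic acid, against 128, 125 and 134 CPM in control. One ascorbic acid library was above and the other below every control, and the log2 fold change of 0.05 ± 0.05 (SE, 95% interval -0.06 to 0.16, edgeR adjusted p = 0.601) turned to -0.06 without ascorbic acid replicate 1. BBC3 encodes PUMA, a BH3-only protein that unleashes BAX, and had 8.74 and 7.30 CPM with ascorbic acid, against 8.19, 8.58 and 8.52 CPM in control. It was the member with a negative value, -0.07 ± 0.11 (SE, 95% interval -0.29 to 0.16, edgeR adjusted p = 0.74), and without ascorbic acid replicate 2 the value was 0.05. The intervals of BAX and BBC3 end below that of TP53I3.

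FAS, the death receptor at the cell surface, had 18.4 and 21.2 CPM with ascorbic acid, against 18.3, 18.1 and 15.97 CPM in control. The groups did not overlap, though the lower ascorbic acid library barely exceeded the highest control. Its log2 fold change was 0.18 ± 0.08 (SE, 95% interval 0.00 to 0.35, edgeR adjusted p = 0.166). With GC and length trends removed from each library, the value was 0.22 with an adjusted p of 0.0257. ACTA2, which covers 8.94% of the exon bases of FAS on the opposite strand, rose by 0.68 ± 0.11 on the log2 scale (SE, adjusted p = 5.08e-05), at 13.5 and 10.9 CPM with ascorbic acid against 7.90, 7.79 and 7.11 CPM in control. How much of the FAS value comes from this overlap was not tested.

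ZMAT3 encodes a zinc finger protein that binds RNA and steers splicing and transcript stability. It had 73.1 and 74.7 CPM with ascorbic acid, against 69.7, 73.1 and 63.9 CPM in control, so the lower ascorbic acid library and the highest control nearly coincided. The log2 fold change was 0.10 ± 0.06 (SE, 95% interval -0.02 to 0.22, edgeR adjusted p = 0.25), and 0.13 with an adjusted p of 0.0323 once GC and length trends were removed. TP53INP1, a nuclear protein that promotes p53 activity and autophagy, had 19.9 and 16.6 CPM with ascorbic acid, against 17.5, 17.3 and 14.6 CPM in control. Its groups overlapped, and the log2 fold change was 0.15 ± 0.09 (SE, 95% interval -0.04 to 0.33, edgeR adjusted p = 0.304).

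**Figure D3:**
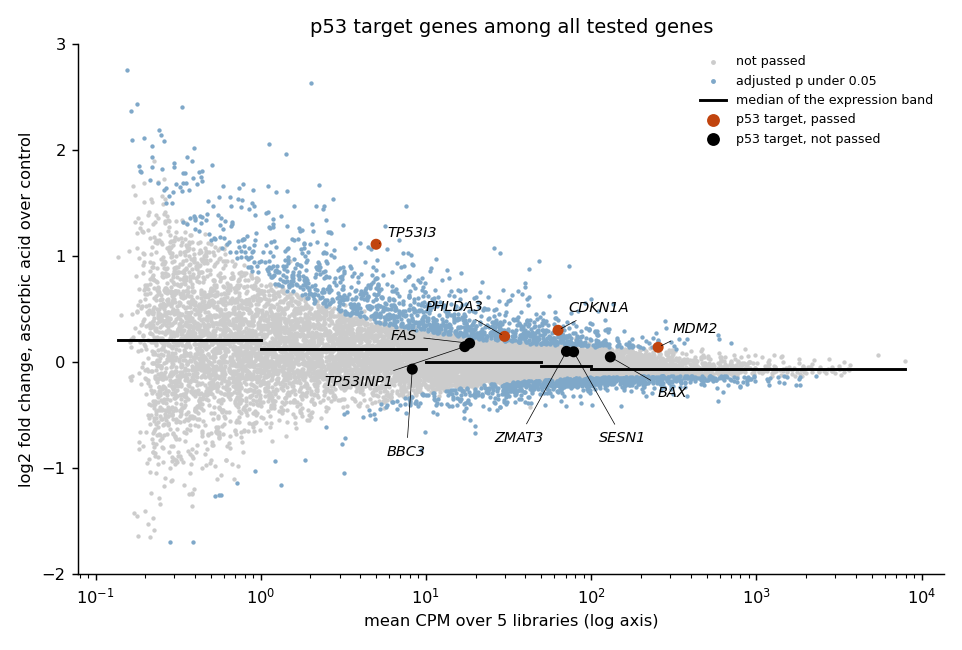
Log2 fold change, ascorbic acid over control, against mean CPM over 5 libraries (log axis) for all tested genes, with the p53 targets labelled. Short horizontal lines are the medians of the expression bands, and 2 genes lie outside the plotted range of -2 to 3. The band medians run downward with abundance, 0.12 at 1 to 10 CPM and -0.06 at 100 CPM or more, and TP53I3 stands far above its band.

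The 2 ascorbic acid libraries did not place the members alike. Replicate 1 was above replicate 2 in 7 of 10 members: in all 5 members whose transcripts exceed 55% GC (TP53I3, CDKN1A, PHLDA3, BAX and BBC3) and in 2 of the 5 under 45% GC (SESN1 and TP53INP1). Across all tested genes the median log2 ratio of replicate 1 to replicate 2 was 0.06 for the 4217 genes over 55% GC and -0.06 for the 5461 genes under 45% GC. The log2 fold change between the groups had medians of 0.06 and -0.02 in the same sets of genes. The part of base composition in the single members was tested only by the fit that removes GC and length trends, in which 6 of 10 members passed, the 4 above and FAS and ZMAT3, while 20.1% of tested genes did.

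The other settings moved the count of members called as follows. It was 3 with DESeq2 (13.2% of genes called) and 3 with DESeq2 size factors in the edgeR fit (14.8%), each time without MDM2. It was 1, TP53I3, when the fold had to exceed 1.2 (1.87%). Leaving out ascorbic acid replicate 1 gave 2 (9.45% of genes called), and leaving out ascorbic acid replicate 2 gave 3 (9.79%). Leaving out control replicates 1, 2 or 3 gave 3 each time, with 7.79%, 10.5% and 13.4% of genes called. TP53I3 passed in all 16 alternatives, with log2 fold changes of 0.93 to 1.26, and CDKN1A in 15.

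**Figure D4:**
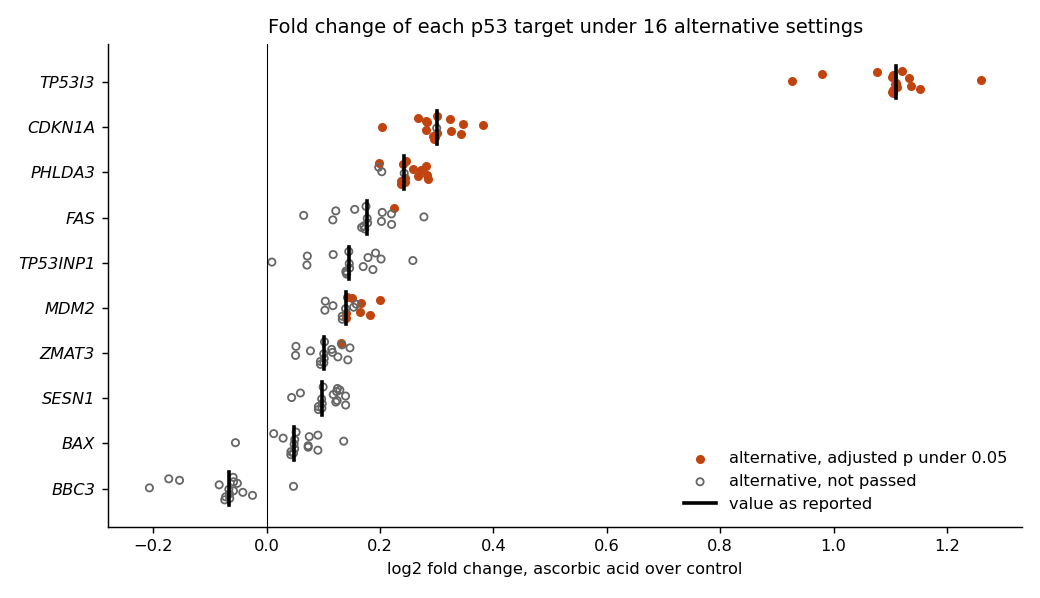
Log2 fold change of each p53 target, ascorbic acid over control, as reported (black bar) and under 16 alternative settings (points, filled where the adjusted p was under 0.05). TP53I3 stays between 0.93 and 1.26, and BAX and BBC3 cross 0.

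Set per kilobase of annotated exon, the members spanned a wide range of levels. BAX was highest, at 51.5 ± 4.98 CPM per kilobase with ascorbic acid (SD, n = 2) and 49.8 ± 1.72 in control (SD, n = 3). In control CDKN1A (18.9), MDM2 (18.4), SESN1 (14.9), PHLDA3 (8.89), ZMAT3 (7.14), FAS (4.10), TP53INP1 (2.90), BBC3 (2.65) and TP53I3 (1.47 CPM per kilobase) came after it. Over all 5 libraries, the ranges of neighbours in this order overlapped for CDKN1A and MDM2, for TP53INP1 and BBC3, and for BBC3 and TP53I3. With ascorbic acid TP53I3 reached 3.56 and 2.81 CPM per kilobase and BBC3 2.75 and 2.29, whereas in control TP53I3 was at 1.46 to 1.51 and BBC3 at 2.58 to 2.70, so the order of the lowest pair differed between the groups. The lengths count every annotated exon, which understates the level of genes with many isoforms.

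Most regulators of p53 did not pass the test. MDM4, a relative of MDM2 that binds p53 and masks its activation domain, had 62.0 and 64.0 CPM with ascorbic acid, against 55.5, 57.7 and 50.2 CPM in control. The groups of MDM4 did not overlap, and its log2 fold change was 0.21 ± 0.06 (SE, edgeR adjusted p = 0.018). Without ascorbic acid replicate 2 or control replicate 3 it was 0.16 to 0.18 (adjusted p 0.0861 to 0.105). Of 27 tested regulators of p53, 2 were called higher, MDM4 and the DNA damage kinase ATR (0.16), and 2 lower, the ubiquitin ligase COP1 (-0.20) and the deubiquitinase USP7 (-0.13), or 14.8% called against 14.3% of all genes. The count called was 0 without ascorbic acid replicate 2 and 1 without control replicate 1 or control replicate 3. The call of USP7 ended when any 1 library was left out (adjusted p 0.0725 to 0.177), and with library totals the list had 2 higher and 0 lower.

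Other p53 targets moved in both directions. In 3 lists of 85 further targets, 77 were tested, 13 rose and 6 fell, or 24.7% called against 14.3% of all genes. Their median log2 fold change was 0.05, beside 0.14 in the 10 members and 0.003 in all genes. The count of 19 called was 10 without ascorbic acid replicate 1, 8 without ascorbic acid replicate 2 and 11 without control replicate 1 or control replicate 2. The split also moved, to 20 higher and 3 lower with library totals and to 7 higher and 1 lower without ascorbic acid replicate 2.

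Among targets of arrest and DNA repair, 3 of 25 rose, 1 fell and 21 did not pass, and the 16% called was close to the 14.3% of all genes. GADD45A, a growth arrest and DNA damage protein, had 20.3 and 20.01 CPM with ascorbic acid, against 17.1, 16.5 and 17.4 CPM in control (log2 fold change 0.24, edgeR adjusted p = 0.033). ANKRA2, an ankyrin repeat protein, rose by 0.35 and SFN, the 14-3-3 protein sigma, by 1.17. SFN was scarce, at 0.536 and 1.03 CPM with ascorbic acid against 0.320, 0.316 and 0.404 CPM in control. Its call ended without ascorbic acid replicate 2, control replicate 1 or control replicate 2, with log2 fold changes of 0.63 to 1.12 (adjusted p 0.0827 to 0.529), and by limma-voom. CCNG1, or cyclin G1, fell by 0.14 and was the most abundant of the 4, at 509 and 502 CPM with ascorbic acid against 585, 558 and 529 CPM in control. Leaving out single libraries also ended the calls of GADD45A (4 libraries, adjusted p 0.0765 to 0.133), CCNG1 (4 libraries, adjusted p 0.0623 to 0.205) and ANKRA2 (2 libraries, adjusted p 0.0942 to 0.137). GADD45A was not called by DESeq2. Without ascorbic acid replicate 2 or without control replicate 1 the count called in this list was 0, and without control replicate 2 it was 1.

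Among targets of death and survival, 5 of 21 tested rose and 3 fell, or 38.1% called against 14.3% of all genes. SPATA18, which acts in the clearance of damaged mitochondria, had 19.8 and 17.7 CPM with ascorbic acid, against 12.1, 12.7 and 11.8 CPM in control. Its groups were far apart, with a log2 fold change of 0.62 ± 0.09 (SE, edgeR adjusted p = 7.97e-06) that no single library ended. PMAIP1, the BH3-only protein NOXA, rose by 0.24 and CASP6, an executioner caspase, by 0.25. EI24 (-0.18), the actin regulator CYFIP2 (-0.19) and APAF1 (-0.20), the scaffold of the apoptosome, fell. Leaving out ascorbic acid replicate 2 ended the calls of PMAIP1 (adjusted p = 0.132) and EI24 (adjusted p = 0.0847). The calls of CASP6 (4 libraries, adjusted p 0.0578 to 0.126), CYFIP2 (2 libraries, adjusted p 0.0514 to 0.145) and APAF1 (3 libraries, adjusted p 0.0513 to 0.108) each ended when 1 of several libraries was left out. The count of 8 called was 4 without ascorbic acid replicate 1, 3 without ascorbic acid replicate 2, 5 without control replicate 1 and 4 without control replicate 2.

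Among targets of metabolism, redox and secretion, 5 of 31 tested rose and 2 fell, or 22.6% called against 14.3% of all genes. LIF, a cytokine, had 4.66 and 5.03 CPM with ascorbic acid, against 2.93, 2.32 and 2.43 CPM in control. Its log2 fold change of 0.90 ± 0.15 (SE, edgeR adjusted p = 0.000151) was lost in no fit that left out a library. ATF3, a stress transcription factor that other pathways also induce, rose by 0.33 ± 0.07 (SE, adjusted p = 0.00137) and the endocytic receptor LRP1 by 0.28. The carboxylesterase CES2 fell by 0.22 and DDIT4, an inhibitor of mTORC1, by 0.17. Leaving out any 1 of the 5 libraries ended the call of DDIT4 (adjusted p 0.0591 to 0.178), and leaving out ascorbic acid replicate 2 that of CES2 (adjusted p = 0.105). The call of LRP1 ended without ascorbic acid replicate 1 (adjusted p = 0.0588). The count of 7 called was 3 without ascorbic acid replicate 1.

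**Figure D5:**
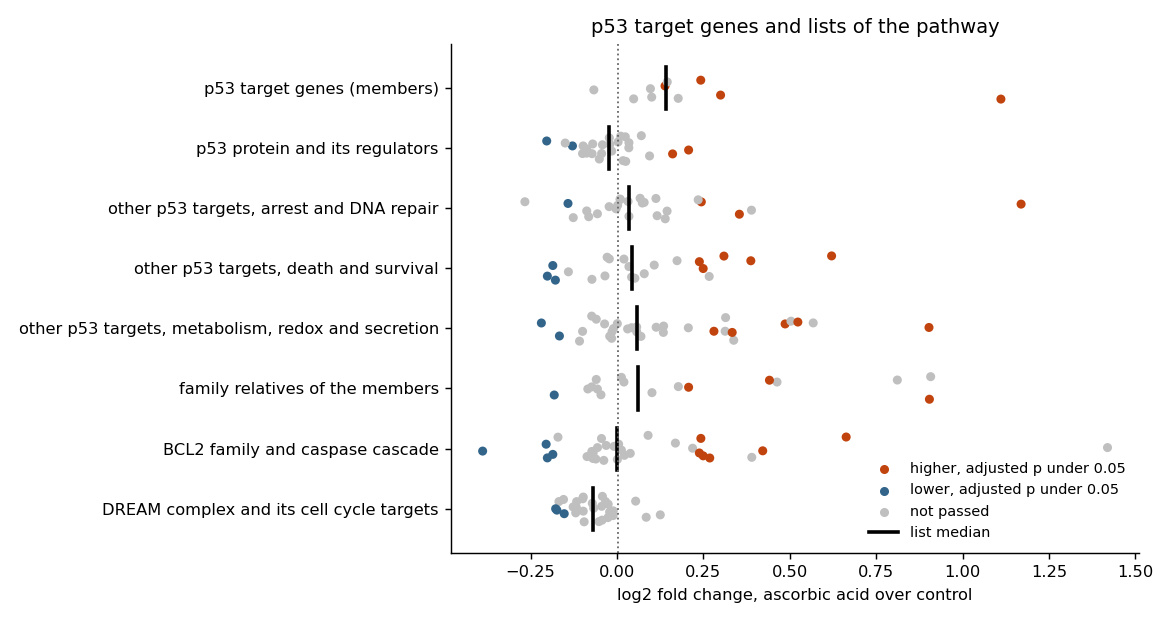
Log2 fold change, ascorbic acid over control, of the 10 p53 targets and of the lists around them. Each point is a tested gene, coloured where its adjusted p was under 0.05, black bars are list medians and the dotted line is the median of all tested genes. The medians are 0.14 for the 10 targets, 0.03 to 0.06 for the other target lists and -0.07 for the DREAM list.

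Relatives of the members by family were read beside them. Of 16 tested, 3 rose and 1 fell, or 25% called against 14.3% of all genes. With cyclic loess 2 were called higher and 0 lower. MDM4 is among those that rose, and it is counted among the regulators of p53 as well. TP53INP2, the relative of TP53INP1 that acts in autophagy, had 16.9 and 17.0 CPM with ascorbic acid, against 14.2, 10.3 and 12.8 CPM in control (log2 fold change 0.44 ± 0.10, SE, edgeR adjusted p = 0.003). CDKN1C, the p57 relative of p21, had 1.88 and 1.59 CPM with ascorbic acid, against 0.995, 0.789 and 0.982 CPM in control (log2 fold change 0.90, edgeR adjusted p = 0.0145), a call that ended without ascorbic acid replicate 1 (adjusted p = 0.139). ZMAT2, a splicing factor, fell by 0.18, a call that ended without control replicate 1 or control replicate 3.

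In the machinery that acts beside BAX, BBC3 and FAS, 6 of 31 tested genes of the BCL2 family and the caspase cascade rose and 4 fell, or 32.3% called against 14.3% of all genes, with a median log2 fold change of 0.00. The split was 2 higher and 5 lower without ascorbic acid replicate 2, and 8 higher and 1 lower with library totals. PMAIP1, CASP6 and APAF1 are also in the list of death and survival, so their calls are counted in both lists. CASP8, the initiator caspase recruited by FAS, had 27.9 and 26.9 CPM with ascorbic acid, against 17.4, 16.9 and 17.5 CPM in control. The groups were widely separated, with a log2 fold change of 0.66 ± 0.07 (SE, edgeR adjusted p = 2.32e-07). CASP10, its close relative, rose by 0.42 and BIRC2, an inhibitor of apoptosis, by 0.27. HRK, a BH3-only protein, had 9.71 and 9.91 CPM with ascorbic acid, against 12.0, 12.9 and 13.7 CPM in control (log2 fold change -0.39 ± 0.10, SE, edgeR adjusted p = 0.00631). CASP2 (-0.19) and APAF1 (-0.20) also fell. The call of CASP10 ended without ascorbic acid replicate 2 (adjusted p = 0.0546), and that of CASP2 without ascorbic acid replicate 1 or control replicate 1 (adjusted p 0.0961 to 0.101). No single library ended the calls of CASP8, BIRC2 and HRK, while without ascorbic acid replicate 1 the count of 10 called was 6.

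p21 is known to lower cell cycle genes through the DREAM repressor complex, so its subunits and targets were read beside CDKN1A. Of 28 genes, 0 rose in the edgeR fit behind the reported values, by DESeq2 or by limma-voom. In edgeR 3 fell, or 10.7%, and 25 did not pass. Called lower were 5.76% of all genes, 9.03% of genes at 50 to 100 CPM and 16% at 100 CPM or more. At an unadjusted p under 0.05 in edgeR there were 1 higher and 11 lower. The share of all genes at that threshold was not counted, so these counts cannot be set against other genes. CDC20, the mitotic activator of the anaphase-promoting complex, had 220 and 201 CPM with ascorbic acid, against 241, 232 and 241 CPM in control (log2 fold change -0.18 ± 0.05, SE, edgeR adjusted p = 0.011). The mitotic kinase AURKB fell by 0.17 and cyclin B2, CCNB2, by 0.15. The median of the list was -0.07, and 3 of 28 genes had positive values. Other settings gave another picture: cyclic loess called 1 higher and 0 lower, library totals 1 and 1, a filter of 5 CPM in 2 libraries 1 and 2, and removal of GC and length trends 1 and 5. Each of the 3 calls ended without control replicate 1, when the count called was 0, and that of CCNB2 also without ascorbic acid replicate 2, control replicate 2 or control replicate 3 (adjusted p 0.071 to 0.14). Likewise CDC20 was not called without ascorbic acid replicate 2, nor AURKB without ascorbic acid replicate 1 or control replicate 3. Genes at 100 CPM or more, as CDC20 and AURKB are, had a median of -0.06.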

How the data were processed

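Poly(A) RNA of 2 ascorbic acid and 3 control HEK293T libraries was compared. The authors deposited a table of whole-number read counts per gene symbol. The submitters' processing notes name the build hg38 (GRCh38) and the tools STAR, featureCounts, DESeq2 and Trimmomatic 0.39. For the annotation, the strand setting and reads with several alignments, nothing is given in these sources. The prefix "vc" of the column names was read as vitamin C and "con" as control. Even values made up 71.3 to 75.9% of the counts between 1 and 10, as when both ends of a pair are counted, and counts then overstate the number of fragments.

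Genes were filtered by filterByExpr, scaled by TMM (factors 0.984 to 1.03) and tested with edgeR 4.0.16 in R 4.3.3 (glmQLFit, robust prior, glmQLFTest, two-sided, no covariates), with Benjamini-Hochberg adjustment over 15271 genes and a threshold of 0.05. Standard errors were computed from log2 fold changes and F values, and the biological coefficient of variation came to 4.6%. Libraries of a group differed beyond counting noise, with a chi-square per degree of freedom of 7.58 for ascorbic acid and 5.57 for control. The script was tested on simulated data. Positions, GC content and exon length came from GENCODE release 29, which matched 95.2% of tested genes, and promoter windows from RefSeq.

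The members and lists were chosen with earlier results of these data known. All 10 members are named, with MDM4 always, and of each list up to 3 called genes with the smallest p in each direction. A further gene and a further marker are not reported here. FAM228B, ACTA2, DINOL and the gene CPM were named for their overlap with members. Alternatives were DESeq2 1.42.0, limma-voom (limma 3.58.1), other scalings and filters, a fold threshold of 1.2, the replicate number as a block, GC and length trends removed (mgcv 1.9.3), halved counts, and each library left out.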

Additional observations from a re-analysis of the deposited data

How the results depend on the processing

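The 10 members gave 160 values over 16 alternatives, of which 144 kept their direction and their side of the threshold, 12 lost the call, 2 gained it and 2 changed sign. The sign changes were BAX without ascorbic acid replicate 1 (-0.055) and BBC3 without ascorbic acid replicate 2 (0.047), and neither gene passed in any setting. With 1 library left out BAX ranged over -0.055 to 0.136 and BBC3 over -0.207 to 0.047. A threshold fold of 1.2 left 1 member, 2 of the other p53 targets and 286 genes called. Cyclic loess left 10 other targets and 1447 genes. With 1 library left out the counts were 2 to 3 members, 8 to 18 other targets and 1180 to 2047 genes (lowest without control replicate 1). The causes were not tested.

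Deviations from the group mean correlated at 0.02 between the libraries numbered 1 and at 0.01 between those numbered 2. The deviations of the 2 ascorbic acid libraries mirror each other, so these values are not independent. They cannot show whether shared replicate numbers mark paired libraries. With the replicate block 3 members (without MDM2, log2 fold change 0.10, adjusted p = 0.12), 14 other targets and 1880 genes were called, 1076 higher and 804 lower. MDM4 (0.15, adjusted p = 0.0793), CES2 and DDIT4 did not pass with the block. Number 3 exists in control only, so in the block fit that library added nothing to the group difference. MDM2 was also at 0.10 in the fit without control replicate 3 (adjusted p = 0.196).

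With 2 ascorbic acid libraries, small changes of abundant members such as MDM2 sit near the limit of the test, and among the least abundant members, TP53I3 and BBC3, intervals are widest. DESeq2 counts cover the 13790 genes to which it gave an adjusted p.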
